A study of Mus musculus with 219 samples.

Results

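The 9 genes described here are genes of the growing mouse oocyte: the growth factors Gdf9 and Bmp15, the receptor Kit, the transcription factors Figla, Nobox, Sohlh1 and Lhx8, and the maternal-effect genes Npm2 and Nlrp14. They were taken by symbol from a table of 32285 genes, and all 9 were present in the tables of both stages. They were followed in 2-cell embryos made by intracytoplasmic sperm injection (ICSI) at 1 of 3 sites of the oocyte, in the sister blastomeres of each embryo, and in blastocysts from the same groups.

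The oocytes came from superovulated B6C3F1 females aged 6 to 8 weeks, and the sperm heads from CD1 males (genotype B6C3F1xCD1). A piezo-driven needle placed the head opposite the metaphase II spindle (contralateral, the vegetal pole), beside it (ipsilateral, the animal pole, called isolateral in the labels) or midway (equatorial). All groups shared hormone priming, cumulus removal with hyaluronidase, ICSI and culture in KSOM with amino acids, and no naturally fertilised embryo was analysed here. Blastomeres were lysed singly at Theiler stage 2, and only where the polar body stayed behind in the zona. Twin blastocysts (Theiler stage 5) each grew from 1 blastomere of a bisected embryo, whereas intact blastocysts grew from the undivided embryo. After the study's minimum of 9500 detected genes in both sisters, 55 of 62 sister pairs remained (21 contralateral, 21 ipsilateral and 13 equatorial), beside 19 twin pairs (6, 7 and 6) and 31 intact blastocysts (11, 8 and 12). The labels do not tell which blastomere inherited which side of the oocyte, and the sister letters carry no order.

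In the growing oocyte, Figla, Nobox, Sohlh1 and Lhx8 switch on the genes of folliculogenesis, GDF9 and BMP15 are secreted towards the surrounding granulosa cells, and KIT on the oocyte receives the Kit ligand made by those cells. Transcription stops before ovulation, so the early embryo works from stored messages, most of which are cleared around the 2-cell stage as the embryonic genome starts up. NPM2, a nucleoplasmin that remodels chromatin, and NLRP14, a protein of the NLR family, belong to the maternal products that the embryo needs after fertilization.

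Total counts ranged from 360474 to 2100561 in the blastomeres, from 713410 to 2161062 in the twins and from 234099 to 1254428 in the intact blastocysts. The 5 markers of the 2-cell stage summed to between 315 and 1141 CPM (counts scaled to library size) in the 2-cell embryos, and to at most 1.79 CPM in twins and 13.3 CPM in intact blastocysts. The 5 trophectoderm markers went the other way, from 5.29 to 197 CPM in 2-cell embryos to 2878 CPM or more in twins and 2788 CPM or more in intact blastocysts. Markers of cumulus and granulosa cells, the other cells that could carry ovarian RNA, summed to between 1.33 and 73.6 CPM (median 35.8) in 2-cell embryos. Of these 10 markers Amh and Inha were at 0 in all 55 embryos, and each of the others had counts in some embryo. Embryos of the contralateral group lay mostly on plate 1 (18 of 21, against 13 of 21 ipsilateral and 11 of 13 equatorial), and equatorial sisters had fewer detected genes (11461 ± 659, SD, n = 13 embryos) than contralateral (12018 ± 551, n = 21) and ipsilateral sisters (12080 ± 610, n = 21). Plate was a term of the fits, and total count and detected genes were tried as further covariates. Nothing in the labels says how many females or ICSI days lie behind a group, so p-values measure the spread between embryos.

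The 9 genes covered a wide range in the 2-cell embryo when set against each other as TPM. TPM is counts per base of all annotated exons of a gene, scaled to the sum in the library (mean of the sisters). Bmp15 was the most abundant, with a median of 1146 TPM over 55 embryos (762.5 to 1675), which placed it 68th of all genes. Npm2 followed at 966 TPM and was below Bmp15 in 46 of 55 embryos. Gdf9 stood at 500 TPM, under Npm2 in all 55 embryos, and Nlrp14 at 216 TPM, under Gdf9 in all 55. Nobox reached 106.2 TPM and was exceeded by Nlrp14 in 53 of 55 embryos. Kit, at 57.5 TPM, was under Nobox in 45 of 55. Kit and Lhx8 (54.7 TPM) could not be ordered by TPM. Kit was the higher in 24 of 55 embryos, and the difference of −0.05 ± 0.65 (log2, SD, n = 55) was far smaller than its spread. These places depend on exon length, 8911 bases for Kit, 2012 for Nobox and 2532 for Lhx8, and shorter single transcripts were not tested. Without length, the median CPM was 142.6 for Kit, 68.8 for Nobox and 40.4 for Lhx8. Sohlh1 and Figla had a median of 0 TPM. By TPM the growth factors and maternal-effect genes were thus present at high level, and Nobox, Kit and Lhx8 at intermediate level. The bHLH factors Sohlh1 and Figla were hardly present.

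**Figure D1:**
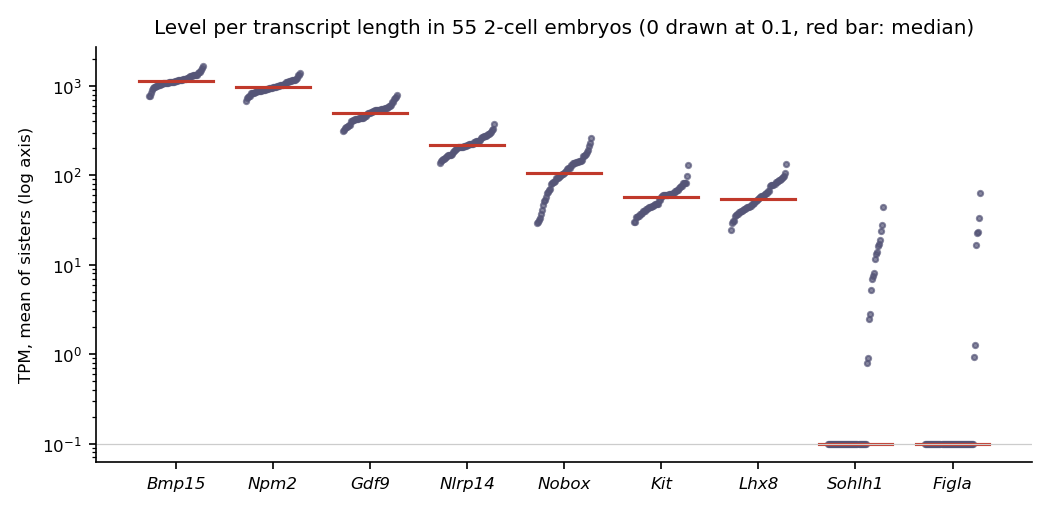
Level per exon length (TPM, mean of both sisters, log axis) of the 9 genes in 55 2-cell embryos, in order of the median (red bar). Each point is 1 embryo, and embryos at 0 are drawn at 0.1. Bmp15 and Npm2 lie around 1000 TPM, Kit and Lhx8 overlap throughout, and most embryos sit at 0 for Sohlh1 and Figla.

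The 9 loci lie on different chromosomes, apart from Nobox and Figla on chromosome 6, and the positions below are those of the whole gene in GRCm38 (GENCODE M21). Gdf9 lies at chr11:53431023-53437904 (plus strand) and Bmp15 at chrX:6314107-6320721 (minus strand). Kit lies at chr5:75574916-75656722 (plus), Figla at chr6:86016171-86020996 (plus) and Nobox at chr6:43303674-43309554 (minus). Sohlh1 lies at chr2:25842995-25847248 (minus), Lhx8 at chr3:154306294-154330659 (minus), Npm2 at chr14:70647302-70659244 (minus) and Nlrp14 at chr7:107166990-107198102 (plus). Reads were counted without strand. The exons of Npm2 shared 39 bases with those of Xpo7 on the same strand, and the exons of the other 8 genes overlapped no annotated exon of another gene.

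The transcription factors of this group are known to act on promoters of the group itself, so the 250 bases upstream of the annotated start are shown for Sohlh1 (hardly present), Nobox (intermediate) and Bmp15 (most abundant). The sequences are from RefSeq on GRCm38.p6, which held a window for 6 of the 9 genes (Bmp15, Figla, Nobox, Sohlh1, Lhx8 and Kit). They cover chr2:25847249-25847498 (minus strand), chr6:43309555-43309804 (minus strand) and chrX:6320725-6320974 (minus strand), and are written 5′ to 3′ along the gene. Capitals mark the E-box CANNTG, the motif of bHLH factors such as FIGLA and SOHLH1, and in Bmp15 also TAATTA and TGATTG, which homeodomain factors such as NOBOX and LHX8 can bind.
Sohlh1: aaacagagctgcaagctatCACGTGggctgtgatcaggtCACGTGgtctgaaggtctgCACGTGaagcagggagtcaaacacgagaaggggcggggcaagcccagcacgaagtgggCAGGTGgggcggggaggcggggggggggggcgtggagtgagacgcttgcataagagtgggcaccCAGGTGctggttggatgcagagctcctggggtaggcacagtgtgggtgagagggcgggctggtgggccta
Nobox: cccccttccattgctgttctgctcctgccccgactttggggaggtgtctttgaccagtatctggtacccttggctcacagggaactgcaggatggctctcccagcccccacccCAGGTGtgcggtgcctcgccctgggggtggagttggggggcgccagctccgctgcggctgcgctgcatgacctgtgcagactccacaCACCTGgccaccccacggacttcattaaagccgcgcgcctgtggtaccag
Bmp15: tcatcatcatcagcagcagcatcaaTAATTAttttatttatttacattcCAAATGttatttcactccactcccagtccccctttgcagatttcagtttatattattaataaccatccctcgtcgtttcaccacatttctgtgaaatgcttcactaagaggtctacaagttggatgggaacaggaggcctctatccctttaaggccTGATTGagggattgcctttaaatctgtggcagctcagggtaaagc

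The Sohlh1 window held 5 E-boxes, of which 3 had the letters CACGTG (at −231, −211 and −192 from the start) and 2 CAGGTG (at −134 and −70). The Nobox window held 2, CAGGTG at −137 and CACCTG at −50, and the Figla window 2, at −173 and −164. Bmp15 had 1 E-box (CAAATG at −201), 1 TAATTA at −225 and 1 TGATTG at −45. None of the searched motifs, TAATTG included, was in the windows of Lhx8 or Kit. Both strands were searched, and CACGTG is one form of CANNTG. Of all 32851 windows of this length, 66.2% held CANNTG, 6.02% CACGTG, 7.17% TAATTG, 4.84% TAATTA and 12.7% TGATTG, so an E-box of any form is common. The Figla window lies inside the gene as placed above, and the Lhx8 and Kit windows overlap their genes in part. For these genes the RefSeq start lies downstream of the GENCODE start. A match of letters is a description of the sequence, not a bound site.

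Did the site of sperm injection change how much of these messages the 2-cell embryo held? The counts of both sisters were added, and edgeR's quasi-likelihood test with a plate term was fitted over 13141 genes. Of the 9 genes, 7 passed the filter on low counts, while Figla and Sohlh1 did not. Between contralateral and equatorial embryos 1 of the 7 was called at an adjusted p of 0.05, Gdf9, in a comparison that called 13.2% of all genes. Between ipsilateral and equatorial embryos 0 of 7 were called, beside 6.65% of all genes. Between contralateral and ipsilateral embryos 0 of 7 were called, and 0% of all genes (555 at an unadjusted p under 0.05; DESeq2 also called 0, with 683 unadjusted). A share of 1 in 7 is near the background, and the count says nothing particular of these genes. Over all genes, 936 were called higher and 797 lower in contralateral than in equatorial embryos, whereas the rank-sum test on added TPM gave 774 higher and 1205 lower.

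Gdf9, the growth factor that drives granulosa cell growth and cumulus expansion, measured 204, 285 and 418 CPM (lowest, median, highest) in the contralateral embryos. It measured 245, 289 and 409 CPM in the ipsilateral and 248, 345 and 459 CPM in the equatorial embryos. The equatorial embryos were thus highest in the middle of their range, but the 3 groups overlapped over most of it. Gdf9 was lower in contralateral than in equatorial embryos by a log2 fold change of −0.31 (SE 0.09, edgeR, adjusted p = 0.0137). For ipsilateral against equatorial the log2 fold change was −0.25 (SE 0.09, edgeR adjusted p = 0.0929), and contralateral against ipsilateral gave −0.06 (SE 0.08, adjusted p = 1). The order of the means was alike on both plates: 286, 298 and 347 CPM (contralateral, ipsilateral, equatorial) on plate 1, and 272, 300 and 370 CPM on plate 2, where the groups held 3, 8 and 2 embryos. The call was lost on plate 1 alone (−0.26, edgeR adjusted p = 0.0645) and in the 48 pairs left when the study's mitochondrial limit of 0.02% was read as the fraction 0.02 (−0.29, adjusted p = 0.0522). The 5 markers of the 2-cell stage also had a lower median sum in equatorial embryos (656 CPM, against 795 and 802 CPM in contralateral and ipsilateral embryos), with overlapping ranges and 1 of 5 called higher at each pole than at the equator, and their part in the Gdf9 difference was not tested. Of the cumulus and granulosa markers 0 of 4 tested were called between sites.

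Bmp15, the X-linked partner of GDF9, measured 747, 1159 and 1263 CPM (lowest, median, highest) in contralateral embryos. The values were 800, 1006 and 1424 CPM in ipsilateral and 732, 986 and 1366 CPM in equatorial embryos. The groups overlapped nearly completely, with the contralateral values the most tightly packed (1124 ± 108.8 CPM, SD, n = 21, against 1038 ± 158, n = 21, and 1027 ± 187, n = 13). The log2 fold changes were 0.12 (SE 0.07, contralateral against equatorial, edgeR adjusted p = 0.312) and 0.03 (SE 0.08, ipsilateral against equatorial, adjusted p = 0.892).

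GDF9 and BMP15 work as a pair, which raised the question of whether an embryo rich in the message of one was rich in the other. Over 55 embryos the log2 CPM of Gdf9 and Bmp15 gave Pearson r = 0.199 (permutation p = 0.146, adjusted over 2 relations 0.292) and Spearman rho = 0.147 (permutation p = 0.285, adjusted 0.570). Without the 2 embryos farthest from the median of Gdf9, r was 0.194, and within plates it was 0.184 (plate 1, n = 42) and 0.294 (plate 2, n = 13). The signed log2 ratios between sisters gave r = −0.140 (permutation p = 0.307, adjusted 0.307) and rho = −0.0703 (permutation p = 0.609, adjusted 0.609), with r of −0.136 without the 2 farthest embryos and −0.143 and −0.145 within plates 1 and 2. Neither relation passed the test. Within single sites r of the levels was 0.347 (contralateral, n = 21), 0.251 (ipsilateral, n = 21) and 0.602 (equatorial, n = 13, permutation p = 0.0287, adjusted 0.0573). This adjustment covers the 2 relations within a site and not the choice among sites.

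Kit, the receptor of the Kit ligand, measured 100.6, 137 and 216 CPM (lowest, median, highest) in contralateral, 88.995, 130 and 254 CPM in ipsilateral, and 104.5, 156 and 346 CPM in equatorial embryos. The highest equatorial embryo stood above all others, and below it the groups overlapped. The log2 fold changes against equatorial embryos were −0.30 (SE 0.14, contralateral, edgeR adjusted p = 0.159) and −0.36 (SE 0.15, ipsilateral, adjusted p = 0.131). On plate 1 alone both passed, at −0.37 (edgeR adjusted p = 0.0497) and −0.45 (adjusted p = 0.0425).

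Nobox, the homeobox factor of the primordial follicle, varied more between embryos than between sites. It measured 17.997, 74.1 and 150 CPM (lowest, median, highest) in contralateral, 18.8, 63.002 and 171 CPM in ipsilateral, and 18.2, 71.2 and 112 CPM in equatorial embryos. The lowest embryos were alike at the 3 sites and the groups overlapped, with the highest values in contralateral and ipsilateral embryos. The log2 fold changes were 0.05 (SE 0.25, contralateral against equatorial, edgeR adjusted p = 0.938) and −0.07 (SE 0.25, ipsilateral against equatorial, adjusted p = 0.926). Lhx8, a LIM-homeobox factor of early follicles, measured 24.9, 44.3 and 101.8 CPM in contralateral, 26.6, 39.3 and 70.95 CPM in ipsilateral, and 17.5, 32.5 and 63.4 CPM in equatorial embryos. Its log2 fold change between contralateral and equatorial embryos was the largest of the 7 in size, 0.49 (SE 0.20), with an edgeR adjusted p of 0.0966 and a DESeq2 adjusted p of 0.0394 (log2 fold change 0.51). Against ipsilateral embryos Lhx8 gave 0.32 (SE 0.17, edgeR adjusted p = 1), and ipsilateral against equatorial 0.17 (SE 0.20, edgeR adjusted p = 0.719).

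The maternal-effect genes had log2 fold changes of at most 0.10 in size against equatorial embryos. Npm2 measured 250, 317 and 437 CPM (lowest, median, highest) in contralateral, 220, 280 and 469 CPM in ipsilateral, and 253, 308 and 377 CPM in equatorial embryos. Nlrp14 measured 181, 234 and 340 CPM in contralateral, 161, 248 and 328 CPM in ipsilateral, and 135, 209 and 395 CPM in equatorial embryos. The groups overlapped for both genes. Against equatorial embryos, Npm2 had log2 fold changes of 0.05 (SE 0.09, contralateral, edgeR adjusted p = 0.786) and −0.03 (SE 0.09, ipsilateral, adjusted p = 0.917). Nlrp14 had 0.10 (SE 0.11, contralateral, edgeR adjusted p = 0.607) and 0.02 (SE 0.11, ipsilateral, adjusted p = 0.945). Nlrp14 was also at 225 ± 47.6 CPM (SD, n = 42) on plate 1 and at 281 ± 51.6 CPM (n = 13) on plate 2.

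**Figure D2:**
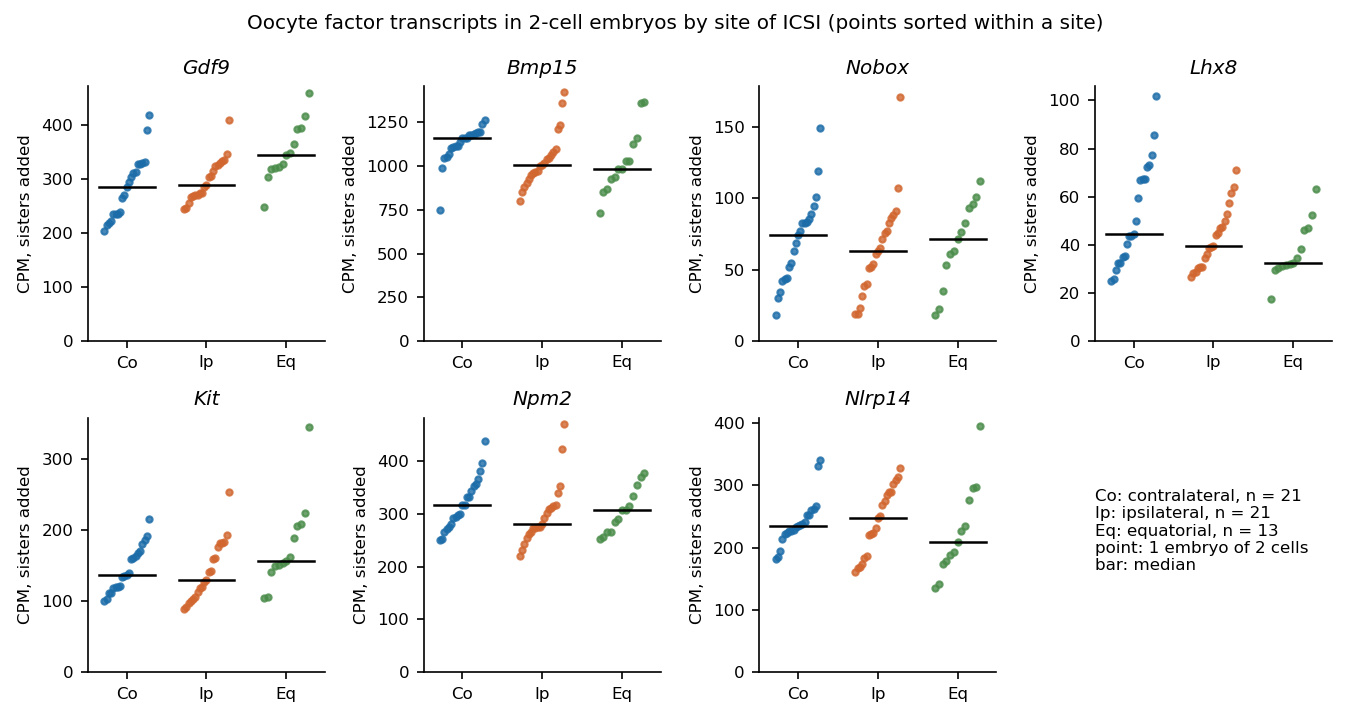
CPM of 7 genes with both sisters added, in 2-cell embryos after contralateral (Co), ipsilateral (Ip) and equatorial (Eq) ICSI, each point being 1 embryo, sorted within a site, and the bar the median. The median of Gdf9 is 345 CPM in equatorial embryos against 285 and 289 CPM at the other sites, while the groups overlap for all 7 genes.

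Figla and Sohlh1, the bHLH factors that start the primordial follicle programme, were near the limit of detection. Figla had counts in 7 of 55 embryos: 4 contralateral (26, 17, 16 and 13 counts), 2 ipsilateral (1 count each) and 1 equatorial (53 counts). By plate these were 3 of 42 embryos on plate 1 and 4 of 13 on plate 2. Sohlh1 had counts in 17 of 55 embryos, 7 contralateral (1 to 17 counts), 6 ipsilateral (1 to 29) and 4 equatorial (7 to 25). In the remaining embryos no count was seen, and 3 counts over the embryo is the floor under which nothing can be told. In the fit without a filter on low counts Figla was called for contralateral against ipsilateral (log2 fold change 5.40, edgeR adjusted p = 0.0013) and for ipsilateral against equatorial embryos (−3.03, adjusted p = 0.03). The first call rests on the 4 contralateral embryos named and the second on 1 equatorial embryo, each against 2 ipsilateral embryos with 1 count. That fit called 1577 and 2603 genes in these comparisons, where the filtered fit called 0 and 874.

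How evenly did the first cleavage divide these messages? In each embryo the sisters were compared by the absolute log2 ratio of CPM + 1. CPM scales each sister to its own library, so this ratio compares the share of a message and not its absolute amount. Bmp15 was the most evenly shared, with a median of 0.12, followed by Npm2 (0.18), Nlrp14 (0.20), Gdf9 (0.23) and Kit (0.35). Lhx8 (0.61) and Nobox (0.73) were the least even. The median over all genes tested was 0.87. The order ran roughly with the mean count per blastomere, which was 1415 for Bmp15, between 200 and 406 for Npm2, Gdf9, Nlrp14 and Kit, 90.6 for Nobox and 61.8 for Lhx8. A difference of more than 1 on the log2 scale was seen in 21 of 55 embryos for Lhx8, 19 for Nobox, 5 for Kit and 1 for Nlrp14, and in none for Gdf9, Bmp15 or Npm2.

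For each of the 7 genes the spread between sisters exceeded what counting error gives. The SD between sisters, on the log2(CPM + 1) scale, was 0.137 for Bmp15 against 0.0398 from counting, and 0.259 for Gdf9 against 0.0755. It was 0.201 for Npm2 (counting 0.0745), 0.255 for Nlrp14 (0.0879) and 0.486 for Kit (0.115). Lhx8 reached 0.733 (counting 0.228) and Nobox 1.07 (0.287), and the medians over all genes tested were 1.34 and 0.545. These libraries have no molecular identifiers, so counting error is a lower limit of the technical error, and the part of the cDNA step in the excess was not tested. Differences between embryos beyond those between sisters had an SD of 0.159 for Gdf9, 0.175 for Bmp15, 0.182 for Npm2, 0.169 for Lhx8, 0.239 for Nlrp14, 0.261 for Kit and 0.610 for Nobox (median of all genes 0.346). Of the 7, Bmp15 thus had the larger SD between embryos, and the other 6 the larger SD between sisters, by little for Npm2 and Nlrp14.

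The widest pairs put figures to this. Gdf9 was most uneven in an equatorial embryo (number 37), with 228 CPM in one sister and 423 CPM in the other. Bmp15 was most uneven in another equatorial embryo (number 33), with 769 and 1177 CPM. The ipsilateral embryo 56 was the widest for Nobox (0 and 63.5 CPM), for Kit (20 and 301 counts) and for Nlrp14 (411 and 518 counts in libraries of unequal depth, or 204 and 433 CPM). In the equatorial embryo 34, Nobox had 1 count in one sister and 46 in the other. Lhx8 was widest in the contralateral embryo 10, with 14 and 93 counts.

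Did the site of ICSI change this evenness? With limma on the absolute ratio and a plate term, 0 of the 7 genes were called between contralateral and equatorial embryos, beside 0.259% of all genes (34 genes, all with a narrower difference in the contralateral embryos). Between ipsilateral and equatorial embryos 0 of 7 were called, beside 0.221% (29 genes). Between contralateral and ipsilateral embryos 0 of 7 and 0% of all genes were called (632 genes at an unadjusted limma p under 0.05). The differences of the members ran from −0.29 (Nobox, contralateral minus equatorial, SE 0.38) to 0.16 (Kit, contralateral minus ipsilateral, SE 0.14), with limma adjusted p from 0.647 to 0.999. For Gdf9 the median ratio was 0.20 in contralateral, 0.36 in ipsilateral and 0.20 in equatorial embryos. For Bmp15 it was 0.09, 0.12 and 0.15. The test could not tell these from the spread between embryos.

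**Figure D3:**
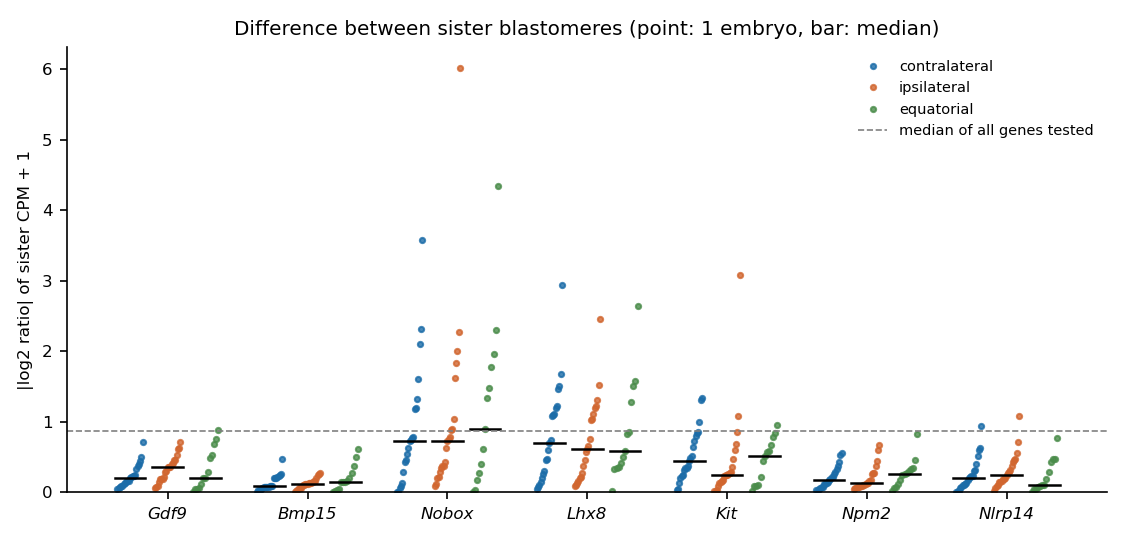
Absolute log2 ratio of CPM + 1 between sister blastomeres for 7 genes, by site of ICSI, each point being 1 embryo (21 contralateral, 21 ipsilateral, 13 equatorial) and the bar the median, with the median of all genes tested (0.87) as a dashed line. Bmp15 lies lowest, and the highest point is Nobox in embryo 56 (6.01), where 1 sister had 0 counts. The dashed line comes from genes with fewer counts per blastomere (median 34.5) than any of the 7.

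Figla and Sohlh1 were counted in few libraries, 7 and 17 of 110. At such a rate counts in both sisters of an embryo would be rare even if sisters were unrelated, so the pattern below says nothing particular of these genes. In all 7 embryos with Figla counts and all 17 with Sohlh1 counts, the counts came from 1 sister while the other had 0. The largest such counts were 53 for Figla (equatorial embryo 67) and 29 for Sohlh1 (ipsilateral embryo 60), and 5 of the 7 Figla and 12 of the 17 Sohlh1 embryos had more than 3 counts in the sister concerned. Among the other 7 genes a sister at 0 occurred once, for Nobox in embryo 56, and 6 genes were counted in both sisters of all 55 embryos. A count of 0 in the second sister allows up to 3 counts, and whether the message was missing there or was not captured was not tested.

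**Figure D4:**
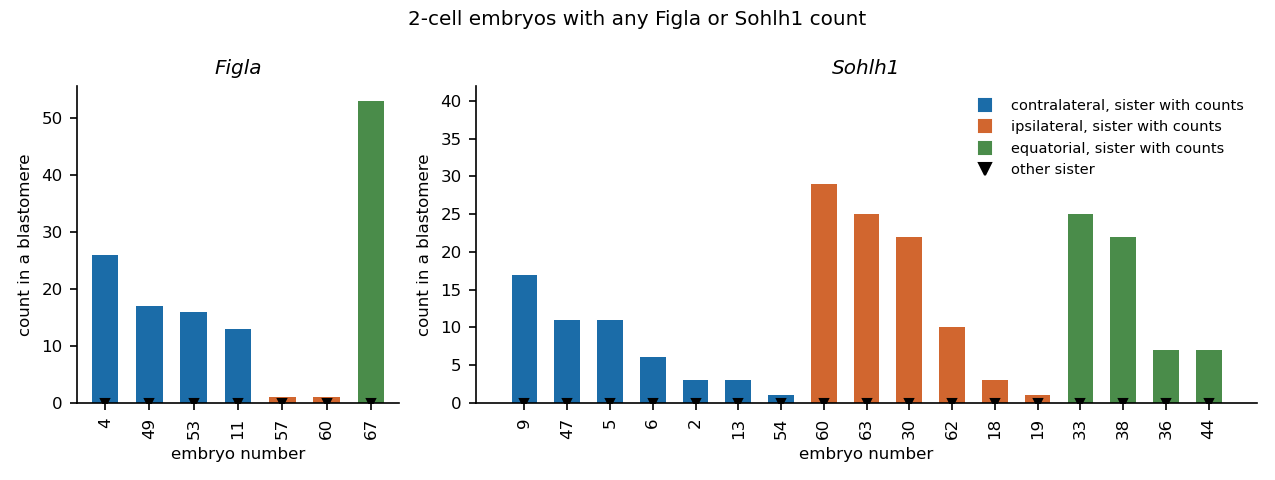
Counts of Figla (7 embryos) and Sohlh1 (17 embryos) in the 2-cell embryos with any count, the bar giving the sister with counts, coloured by site of ICSI, and the triangle the other sister, with the embryo number on the x axis. In each embryo shown the other sister is at 0.

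Across the 55 embryos each well counted member was matched with the gene whose log2 CPM followed it most closely by Spearman's rho, among 13141 genes. These were Plekha8 for Gdf9 (rho 0.74), Gm47432 for Bmp15 (0.67), Foxk2 for Kit (0.76), Rae1 for Nobox (0.69), Ifit1bl2 for Lhx8 (0.58), Iqcf5 for Npm2 (0.64) and Cnot11 for Nlrp14 (0.66). None of these is a member. Among the members themselves the closest partners were Nobox and Lhx8 (rho 0.46), Bmp15 and Npm2 (0.45), and Gdf9 and Kit (0.44), while Nlrp14 came closest to Nobox (0.28). The embryos share plates and sites, and each value is the highest of many, so these are descriptions only.

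The signalling partners of the members were examined in fixed lists, against a background of 13.2% of all genes called between contralateral and equatorial and 6.65% between ipsilateral and equatorial embryos. In lists this short, 1 or 2 calls say nothing particular of a list. Of 12 TGF-beta partners (receptors, SMADs and the protease Furin), 1 was called lower in contralateral than in equatorial embryos, the inhibitory Smad7 (log2 fold change −1.27, edgeR adjusted p = 0.011), and 0 in ipsilateral embryos. The medians over the 12 were 0.02 and −0.07, near those of all genes (0.00 and 0.01). Of 8 Kit partners, 2 were lower in contralateral embryos, the kinase Akt1 (−0.96, edgeR adjusted p = 0.00035) and Foxo3 (−0.33, adjusted p = 0.0299), a brake on follicle activation. Foxo3 alone was lower in ipsilateral embryos (−0.48, adjusted p = 0.0043). With total count and detected genes as covariates, 61 genes were called between ipsilateral and equatorial embryos, 60 higher and 1 lower. The medians of the Kit partners were −0.27 and −0.22.

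Of 5 partners in oocyte transcription, Taf4b, a subunit of the general transcription machinery in germ cells (−0.43, edgeR adjusted p = 0.00703), and Sall4, a zinc finger factor (−0.62, adjusted p = 0.00764), were lower in contralateral than in equatorial embryos. Sall4 was also lower in ipsilateral embryos (−0.64, adjusted p = 0.0159), and the medians of the 5 were 0.01 and −0.09. With the depth covariates only 1 gene was called lower in ipsilateral embryos, so Foxo3 and Sall4 cannot both have kept their calls there. Of 5 known targets of the factors (the zona pellucida genes Zp1, Zp2 and Zp3, with Oosp1 and Pou5f1), 0 were called in either comparison, with medians of −0.16 and −0.04.

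Of 5 genes of the nucleoplasmin family and its histone partners, the oocyte linker histone H1foo was higher in contralateral (0.33, edgeR adjusted p = 0.0149) and ipsilateral embryos (0.34, adjusted p = 0.0257), and the histone chaperone Nasp lower in contralateral embryos (−0.36, adjusted p = 0.0246), with medians of −0.07 and −0.18. Of the NLR family and Nlrp14 partners, 9 of 10 were tested and 2 were higher in both groups. Nlrp9c gave 0.63 (contralateral, edgeR adjusted p = 1.2e-05) and 0.45 (ipsilateral, adjusted p = 0.00206), and Nlrp9a gave 0.60 at both sites (adjusted p = 0.00067 and 0.00206). The list medians were 0.39 and 0.28. Both comparisons share the equatorial embryos. Between contralateral and ipsilateral embryos, and for the spread between sisters, none of these lists held a called gene, and the Nlrp9 genes are close paralogues among which reads may be split.

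What was left by the blastocyst stage? In a fit of all 3 kinds of embryo over 16731 genes, 8 of the 9 members passed the filter, and all 8 were lower in intact blastocysts than in 2-cell embryos (background 46.3% of genes called lower) and lower in twins (background 43.4%). They passed through the 2-cell embryos, where they are high, so a lower call had to follow for most of them. The median log2 fold change of all genes was −0.59 (intact) and −0.39 (twin), and −0.13 and 0.04 with plate 2 alone. Of the cumulus and granulosa markers, whose cells surround the oocyte, 4 of 4 tested were also lower in both kinds of blastocyst, and their part in the fall of the members was not tested. In the fit of blastocysts alone 1 of the 10 listed markers passed the filter, so these lower calls too were largely fixed by the filter. A count is a share of its library, so loss of the message and growth of the total RNA of the embryo cannot be told apart. Whether the counts seen in blastocysts were message stored since the oocyte was not tested. The size of the fall is given below from pooled counts, as the fold between the CPM of all 2-cell embryos and of all blastocysts of a kind, with a 95% interval from both counts (exact conditional binomial) that covers counting error only. Where leaving out the embryo with the most counts moved a fold by over 1.5 times and counts remained, the value without it is given too, a choice made after seeing the data.

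Gdf9 fell from 299 CPM to 1.99 CPM in twins (87 counts in 38 libraries), 150-fold lower (121.7 to 187), and to 1.58 CPM in intact blastocysts (35 counts in 31 libraries), 189-fold lower (136 to 272). It was counted in 11 of 19 twin pairs, up to 25 counts, and in 7 of 31 intact blastocysts, up to 15 counts. Without the intact blastocyst with 15 counts, Gdf9 was 314-fold lower (203 to 514). Bmp15, the most abundant of the 9 in the 2-cell embryo at 1056 CPM, was almost gone. All that remained was 3 counts in 1 twin pair, a ratio of 15361 (5256 to 74488), and 2 counts in 1 intact blastocyst, a ratio of 11683 (3234 to 96471). The growth factors thus differed in what was left, 0.666% and 0.528% of the 2-cell CPM for Gdf9 in twins and intact blastocysts against 0.00651% and 0.00856% for Bmp15.

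Kit fell from 149 CPM to 1.44 CPM in twins (63 counts, 103-fold lower, 80.7 to 134) and to 1.08 CPM in intact blastocysts (24 counts, 137-fold lower, 92.4 to 215). It was counted in 13 of 19 twin pairs and 9 of 31 intact blastocysts, the most of any member. The share left, 0.968% and 0.727%, was the highest of the 7 well counted genes. The intervals of Kit overlapped those of Gdf9 in both kinds, and those of Nlrp14 in intact blastocysts. In equatorial intact blastocysts the order was another, with 0.0614% left of Kit against 0.966% of Gdf9 and 0.813% of Nlrp14. At the other sites and in twins Kit had the highest share among the well counted genes with counts.

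Nobox was at 0 in all 38 twins and all 31 intact blastocysts. Against a floor of 3 counts over the group, it was at least 983-fold lower in twins and at least 499-fold lower in intact blastocysts than its 67.6 CPM in 2-cell embryos. Lhx8 fell from 46.1 CPM to 1 count in twins, a ratio of 2013 (361 to 79506), and to 5 counts in 2 intact blastocysts, 204-fold lower (87.4 to 629). Of those 5 counts of Lhx8, 4 were in 1 blastocyst, without which 1 count remained, a ratio of 1006 (180 to 39735). Figla and Sohlh1 were low at both stages. Figla had 13 counts in 3 twin pairs and 5 in 1 intact blastocyst, or 0.298 and 0.226 CPM against 0.862 CPM in 2-cell embryos, with 7 of the 13 in 1 pair (0.144 CPM without it), and had no main test because it failed the filter. Without the filter Figla was called lower in intact blastocysts (log2 fold change −3.89, edgeR adjusted p = 5.5e-05) and in twins (−2.91, adjusted p = 0.00126). That fit called 9028 (intact) and 8536 (twins) of 26921 genes lower. From pooled counts Figla was only 3.81-fold lower in intact blastocysts (1.59 to 11.9) and 2.89-fold in twins (1.63 to 5.58). Its 2-cell level rests on 7 of 55 embryos, with 53 counts in 1 of them, so the size of the fall is uncertain. Sohlh1 went from 1.38 CPM in 2-cell embryos to 1 count in twins, a ratio of 60.1 (10.7 to 2386). In intact blastocysts it had 5 counts in 2 embryos, 6.10-fold lower (2.57 to 18.97). Of those 5 counts 4 were in 1 blastocyst, without which 1 count remained and Sohlh1 was 29.3-fold lower (5.20 to 1162). Its lower level was called (edgeR adjusted p = 0.0056 for intact blastocysts and 0.00016 for twins) but not on plate 2 alone (adjusted p = 1.00 for both), nor by DESeq2 for intact blastocysts (adjusted p = 0.271).

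Npm2 fell from 303 CPM to 0.940 CPM in twins (41 counts, 323-fold lower, 238 to 450) and to 0.316 CPM in intact blastocysts (7 counts, 959-fold lower, 465 to 2385). Nlrp14 fell from 240 CPM to 0.596 CPM in twins (26 counts, 402-fold lower, 274 to 616) and to 1.18 CPM in intact blastocysts (26 counts, 204-fold lower, 139 to 312). Without the twin pair that held 10 of its counts the fall of Nlrp14 was 623-fold (383 to 1090), and without the intact blastocyst that held 15 it was 457-fold (256 to 916). Npm2 was 1615-fold lower (631 to 5927) without the intact blastocyst that held 3 of its 7 counts. Npm2 was counted in 9 of 19 twin pairs and 4 of 31 intact blastocysts, and Nlrp14 in 5 and 3.

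The counts in blastocysts were spread unevenly over embryos. All 9 genes together had 235 counts over the 19 twin pairs, of which 17 had any. Of the 31 intact blastocysts 22 had any, with 22 counts over the contralateral, 25 over the ipsilateral and 62 over the equatorial ones. The summed library totals of these 3 groups were 7092243, 5449592 and 9583420. Twin pairs had a mean total of 2296647 and intact blastocysts of 713718, so the shares of embryos with a count are not comparable between the kinds. 1 contralateral twin pair alone held 41 counts of 5 genes (22 of Kit, 8 of Npm2, 7 of Figla, 3 of Bmp15 and 1 of Gdf9). 1 equatorial pair held 35 (25 of Gdf9), and 1 equatorial intact blastocyst held 30 (15 each of Gdf9 and Nlrp14). The markers of the 2-cell stage summed to 0 CPM in all 3 of these, and the trophectoderm markers to 3586, 2878 and 2838 CPM.

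By site, Gdf9 was counted in 5 of 12 equatorial (32 counts, 3.34 CPM, 95% exact Poisson interval 2.28 to 4.71), 2 of 8 ipsilateral (3 counts) and 0 of 11 contralateral intact blastocysts. Without the equatorial blastocyst with 15 counts, 2.01 CPM (1.17 to 3.22) remained in the equatorial group. In twin pairs it was counted at every site (21, 35 and 31 counts in contralateral, ipsilateral and equatorial pairs, and 9, 20 and 6 without the pair with the most at each site). Kit was counted in 7 of 8 ipsilateral intact blastocysts, with 1 to 4 counts each (3.30 CPM, 1.96 to 5.22), against 1 of 11 contralateral (5 counts, in the library with the lowest total) and 1 of 12 equatorial (1 count, 0.104 CPM, 0.00264 to 0.581). In twin pairs Kit was counted in 2 of 6 contralateral, 5 of 7 ipsilateral and 6 of 6 equatorial pairs. Ipsilateral intact blastocysts also had the most detected genes (12297 ± 397, SD, n = 8, against 10870 ± 1108, n = 11, contralateral and 11354 ± 1537, n = 12, equatorial), and its part in the Kit counts was not tested.

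In the blastocyst fit 0 of the 9 members passed the filter on low counts, so they have no main test between kinds or sites. In the fit without that filter, the difference between sites in intact blastocysts gave an edgeR adjusted p of 0.0479 for Gdf9, 0.0740 for Figla and 0.0949 for Kit. In twins the smallest was 0.373 (Figla). Twins against intact blastocysts gave a log2 fold change of 1.74 for Gdf9 (SE 0.67, edgeR adjusted p = 0.0468), 1.41 for Npm2 (SE 0.70, adjusted p = 0.139) and 0.65 for Kit (SE 0.57, adjusted p = 0.533). Of 23034 genes the same fit called 558 between sites in intact blastocysts and 5610 between twins and intact blastocysts. With so few counts the fitted values of the members depend on the prior count. The pooled CPM of Gdf9 in twins and intact blastocysts, 1.99 (1.60 to 2.46) and 1.58 (1.10 to 2.20), have overlapping counting intervals.

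**Figure D5:**
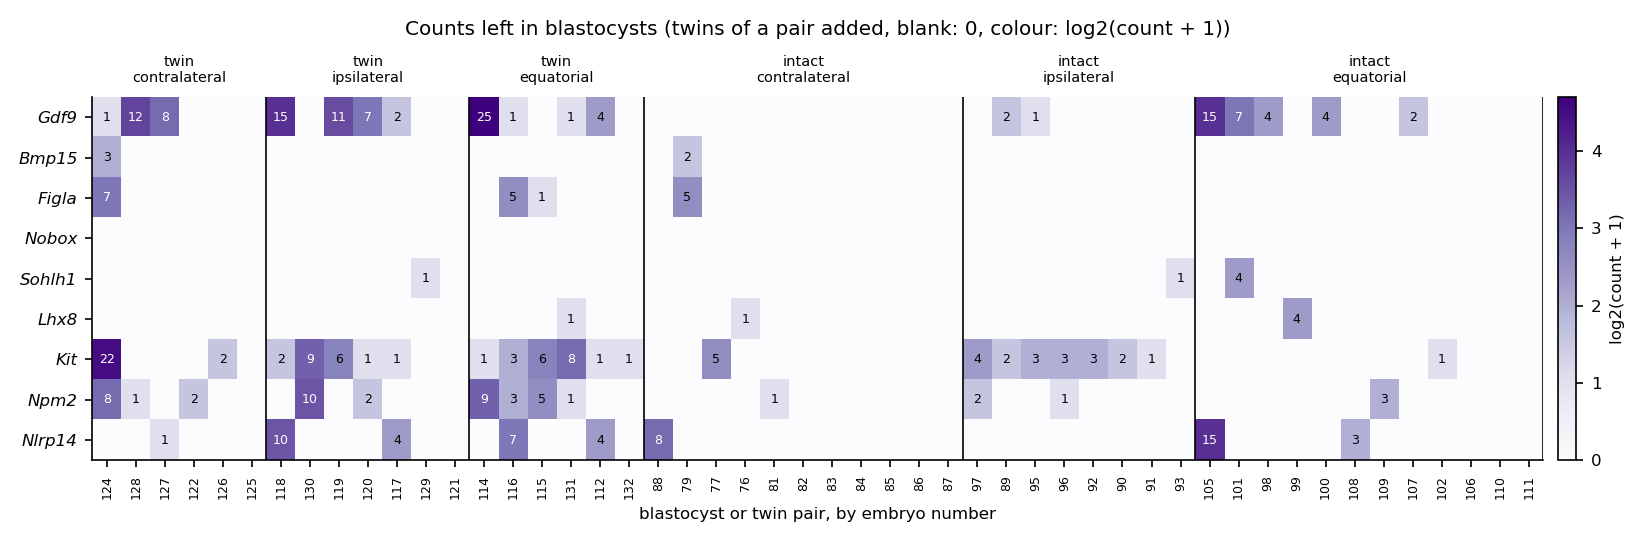
Counts of the 9 genes in 19 twin pairs (twins of a pair added) and 31 intact blastocysts, by site of ICSI and embryo number, with the count printed where it is above 0 and the colour giving log2(count + 1). Nobox is blank throughout, Kit is counted in 7 of 8 ipsilateral intact blastocysts, and the highest value is 25 counts of Gdf9 in an equatorial twin pair.

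The partner lists were read against the 46.3% of all genes called lower in intact blastocysts and 43.4% in twins. Of the 5 known targets and the 10 NLR family genes and partners, 2 and 3 passed the filter in the fit of blastocysts alone. The others passed through the 2-cell embryos, so a lower call had to follow for most of them, and the background is no fair measure there. The known targets were lower in 5 of 5 cases in intact blastocysts and 4 of 5 in twins, Oosp1 by −13.63 and −12.95 on the log2 scale and Zp3 by −9.36 and −6.08. Of the NLR family and Nlrp14 partners 9 of 10 were lower in both (Nlrp9c by −13.22 and −11.43), and 1, the mitochondrial exchanger Slc8b1, was higher (3.14 and 3.67). H1foo was lower (−13.47 and −12.59), whereas Npm1 and Npm3, the relatives of Npm2 found in most cells, were higher in intact blastocysts (0.88 and 0.92). Of the Kit partners 5 of 8 were lower in each kind, with 1 higher in intact blastocysts and 2 in twins. The ligand Kitl changed by −2.35 and −5.004. Of the TGF-beta partners 6 of 12 were lower in intact blastocysts and 8 in twins, the first of these near the background, with 2 higher in each kind, and the receptor Bmpr1b was the most reduced (−10.43 and −10.12). Of the transcription partners 4 of 5 were lower in intact blastocysts, where the other, Sall4, was higher (0.50), and 3 in twins, with Tbpl2, the oocyte form of the TATA-binding protein, at −9.04 in both. The adjusted p of these named changes lay below the edgeR threshold of 0.05. In the fit of blastocysts alone 4 of 5 transcription partners, 10 of 12 TGF-beta partners and 4 of 5 nucleoplasmin genes passed the filter. Tbpl2 was at 0 in all blastocysts, and Bmpr1b and H1foo were at 0 in all intact ones. These genes too passed through the 2-cell embryos, so their lower calls were largely fixed by the filter.

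Between twins and intact blastocysts, where 40.7% of genes were called, the lists changed in both directions. Twin pairs had the larger library totals, and with depth as a covariate the calls fell from 4353 to 1426 of 10689 genes. The calls below are those without that covariate, and which of them it would keep is not given here. Pou5f1, an epiblast gene, was higher in twins (log2 fold change 1.72, edgeR adjusted p = 1.1e-13) and Zp2 lower (−2.08, adjusted p = 0.0076). Sohlh2, the close relative of Sohlh1, was higher (1.85, adjusted p = 0.0020) and Sall4 lower (−0.54, adjusted p = 0.00016). Of 7 Kit partners tested, 3 were higher (Pik3r1, Grb2 and Foxo3) and 1 lower (Pik3ca), and of 10 TGF-beta partners 1 was higher (Smad4) and 2 lower (Smad7 and Bmpr2). Npm1 (−0.87) and Npm3 (−1.05) were lower in twins, and Uhrf1 was higher (0.47).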

How the data were processed

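RNA of single blastomeres and single blastocysts was copied with a SMART-Seq kit and sequenced from Nextera XT libraries on 2 plates (blastomeres on both, blastocysts on plate 2). Per the labels and the study's methods, the authors trimmed reads with Trimmomatic 039, checked them with FastQC 0.12.1, aligned them without strand with STAR 2.7.10b to GRCm38 (GENCODE M23) and deposited raw counts per gene, without normalization. Of 150 labelled blastomeres 125 have a column. The kit has no molecular identifiers, so intervals cover counting error only.

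The embryo was the replicate, with the counts of sisters or twins added. CPM and TPM were computed here, TPM with exon lengths of GENCODE M21. The main tests were edgeR 4.0.16 (R 4.3.3; quasi-likelihood, TMM, filterByExpr, robust, with plate as a term where both plates occur) and limma 3.58.1 on the absolute log2 ratio of sister CPM + 1, with Benjamini-Hochberg adjustment over all genes tested and a threshold of 0.05. The study itself used an unadjusted rank-sum test on added TPM, kept as an alternative beside DESeq2 1.42.0. Correlations used 100000 permutations (scipy 1.17.1, Python 3.11.15). The scripts were tested on simulated data. There the tests between sites recovered 48.5% to 60% of genes doubled or halved in a group. The test of sister spread recovered 23.5% of genes with a doubled spread, so an uncalled gene may still differ. Genes named are the 9 members, up to 4 called genes of each fixed list by adjusted p, and the gene with the highest Spearman rho for each member with a median of 10 or more counts. In stage and blastocyst lists further genes were named for their role after their values were seen. The members and lists were chosen with earlier results of these data known. One embryo-numbering scheme runs through all groups. Blastomeres outside the 55 pairs entered no test.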

Additional observations from a re-analysis of the deposited data

Results flagged for a closer look

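Within blastocyst groups of 6 to 8 samples, 12 of 21 sets of values had an embryo that stood apart from the rest by Dixon's criterion. The chance rate of that criterion, about 1 in 20, does not hold here. Most samples are at 0 in these sets, so 1 count can be enough. Of the 6 contralateral twin pairs the same pair stood apart for Kit (11.05 CPM, 22 counts), Npm2 (4.02 CPM, 8 counts), Figla (3.517 CPM, 7 counts) and Bmp15 (1.507 CPM, 3 counts), and another for Nlrp14 (0.4133 CPM, 1 count). Among the 6 equatorial twin pairs, separate pairs stood apart for Gdf9 (8.256 CPM, 25 counts), Figla (2.528 CPM, 5 counts) and Lhx8 (0.4545 CPM, 1 count). Among the 7 ipsilateral twin pairs, separate pairs stood apart for Nlrp14 (4.879 CPM, 10 counts), Npm2 (4.201 CPM, 10 counts) and Sohlh1 (0.4723 CPM, 1 count). Among the 8 ipsilateral intact blastocysts 1 stood apart for Sohlh1 (1.883 CPM, 1 count).

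The 15 blastomeres outside the 55 pairs entered no comparison, and 8 of the 9 genes had counts there. Their median was 343.6 CPM for Gdf9, 1119 CPM for Bmp15, 281 CPM for Npm2, 238.4 CPM for Nlrp14, 202.4 CPM for Kit, 54.49 CPM for Nobox, 48.68 CPM for Lhx8 and 0 CPM for Sohlh1, which had 21 counts in all.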

How the results depend on the processing

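For the members, 183 of 189 alternative values between sites in 2-cell embryos kept their side of the threshold. The exceptions were the loss of Gdf9 and the gains of Lhx8 and Kit given in the report, and Gdf9 for ipsilateral against equatorial embryos by the rank-sum test (log2 difference −0.31, adjusted p = 0.0216). For Gdf9 between contralateral and equatorial embryos the adjusted p ran from 0.0099 to 0.0645. In the spread between sisters all 147 alternatives stayed uncalled, and 61 of 64 stage values stayed called, Sohlh1 being the exception. Uncalled values changed sign in 13 of 189 and 22 of 147 cases, by at most 0.15 and 0.32 in size.

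Counts over all genes moved more, and the causes were not tested beyond the settings themselves. Contralateral against equatorial embryos gave 1733 calls, but 3930 with every counted gene kept and 1104 in 48 pairs (mitochondrial limit read as a fraction). Ipsilateral against equatorial gave 874, but 2603 with every counted gene, 61 with depth covariates and 1362 by the rank-sum test. Contralateral against ipsilateral gave 0, but 1577 with every counted gene. Twins against intact blastocysts gave 4353, but 1426 with depth as a covariate. Any site difference in intact blastocysts gave 9, but 558 with every counted gene and 0 with 1 twin a pair. The spread between sisters gave 34 calls for contralateral against equatorial embryos, but 9 with a pseudocount of 10 CPM, 16 on plate 1, 4 with a depth covariate, 2 in 48 pairs and 0 in all 62 pairs. For ipsilateral against equatorial it gave 29, but 57 and 9 with pseudocounts of 0.1 and 10 CPM, 4 on plate 1, 2 with a depth covariate, 55 as difference over sum and 1 in all 62 pairs. The relation of Gdf9 and Bmp15 within plate 2, and the folds without the embryo with the most counts, were added after seeing the data; each gene stayed lower in blastocysts without it. DESeq2 was not run for the tests of any site difference. No paired analysis was possible because each embryo number belongs to 1 group. Depth limits Figla, Sohlh1 and all blastocyst values.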
